A study of Mus musculus with 4 samples.

Results

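Semaphorins are guidance ligands, and plexins and neuropilins are their receptors. The 31 mouse genes described here were chosen by symbol alone from the 32285 genes measured: 20 semaphorins (Sema3 to Sema7), 9 plexins and the neuropilins Nrp1 and Nrp2. Sema3 proteins are mostly secreted and bind a neuropilin, which holds the ligand while an A-type plexin signals. Sema4, Sema5 and Sema6 proteins span the membrane and bind plexins directly, and Sema7a is tethered by a lipid anchor and binds Plxnc1. In the spinal cord the family is known for repelling or attracting growing axons, and several members act on oligodendrocytes and their precursors.

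Nuclei were sorted for green fluorescence from the cervical cord of female mice carrying 1 Cre driver allele of the V2a lineage and ROSA26CAG-LSL-Sun1-sfGFP-Myc/+, alleles that label nuclear envelopes of cells in which Cre was active. The labels give 2 libraries from uninjured cord (C1 to C8) and 2 from cord taken 5 days after a hemisection at C2 (C3 to C8). All groups carry both alleles. Injury therefore cannot be told apart from the segments taken. No label states that each library is a different animal or pool, and a p-value here covers only how far these 4 libraries vary, possibly for technical reasons.

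After filtering, 560, 2071, 551 and 389 nuclei remained in uninjured 1, uninjured 2, injured 1 and injured 2. Glutamatergic neuron-like nuclei, the class to which V2a neurons belong, numbered 457, 712, 398 and 311, with 6420270, 8103053, 3504977 and 2584884 counts. In the 8 clusters of this class the vesicular glutamate transporter gene Slc17a6 had a stored entry (explained below) in 71.9% to 92.0% of nuclei. Naming the class required 50%, so this range is no separate check of it. Counts of the gene ran from 0 in the 49 nuclei of the cluster led by Met to 72 in the 138 led by Dnah11. Outside the class, Slc17a6 was stored in 68.4%, 65.0% and 67.9% of nuclei in the neuron clusters led by Qrfprl, Ccdc172 and Nmu. Uninjured 2 stood apart, with 658 oligodendrocyte-like nuclei against 13, 8 and 4 in the others, and 109 astrocyte-like nuclei against 2, 6 and 1. Of 6 pairs of libraries, 2 shared 1 cell barcode each and the rest shared 0.

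Every gene has a pair of measures here. A stored entry means that the deposited matrix lists the gene for a nucleus, and between 53% and 60.1% of such entries hold a 0, which was read as a detection emptied by the subtraction of free RNA. A count is what was kept, scaled to the total of the class as CPM, a scale for comparing libraries and cell classes and not different genes. Stored entries can include free RNA. Of the 31 members, 17 were stored in at least 20% of glutamatergic nuclei of every library and 6 in under 5% of every library (Plxnb1, Plxnb3, Plxnd1, Sema3b, Sema3f and Sema3g). No count was left in any library for Plxnd1, Sema3c and Sema4c, and 15 members had no count in at least 1 library.

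Among the secreted ligands, Sema3a, a repellent for many axons, stood at 228, 166, 188 and 236 CPM in the glutamatergic nuclei of uninjured 1, uninjured 2, injured 1 and injured 2. It was stored in 53.7% to 63.7% of these nuclei, and the groups overlapped on the CPM scale. Sema3c was stored in 56.9%, 50.1%, 38.7% and 35.0% of nuclei but kept 0 counts, so its level cannot be given. Sema3d was at 7.16, 0, 10.3 and 12.8 CPM, and Sema3e, a ligand of Plxnd1, at 7.32, 10.4, 3.71 and 3.48 CPM. For both, the injured libraries lay on one side of both uninjured libraries.

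Of the membrane-bound Sema4 and Sema5 ligands, Sema4d, known as an inhibitor of axon growth from myelin, was at 35.2, 7.90, 52.8 and 53 CPM, with uninjured 2 far below the rest. Sema4b was at 12.9, 7.03, 21.4 and 20.9 CPM and Sema4a at 3.27, 3.70, 6.56 and 5.80 CPM, both higher in each injured library. Sema4g was listed at 0, 3.21, 5.71 and 0 CPM. Sema5a, a ligand of Plxnb3, was at 155, 71.7, 81.3 and 96.3 CPM, and Sema5b at 19.3, 42, 46.8 and 12.8 CPM. The ranges of the groups overlapped for both Sema5 genes.

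Of the Sema6 ligands, Sema6d was at 355, 293, 269 and 303 CPM, overlapping between groups, and was stored in 67.6% to 79.9% of nuclei. Sema6a, a ligand of Plxna2 and Plxna4, was at 118, 77.4, 149.8 and 156 CPM, higher in both injured libraries. Sema6b was stored in 23.8% to 28.4% of nuclei but kept 3 counts in all, and Sema6c was at 1.56, 0.49, 5.99 and 5.03 CPM. The lipid-anchored Sema7a was at 0, 2.84, 7.99 and 5.80 CPM.

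Among the receptors, Plxna4, which signals for Sema3a and Sema6 ligands, was stored in 90.7% to 96.9% of glutamatergic nuclei and stood at 533, 636, 599 and 528 CPM. Plxna2 was at 150.3, 139, 173 and 126 CPM and Plxna1 at 2.02, 10.1, 11.4 and 3.87 CPM. All of these overlapped between the groups. Plxnc1, the Sema7a receptor, was at 26.5, 13.5, 19.1 and 20.5 CPM. Of the neuropilins, Nrp2 was at 108, 125, 122 and 118 CPM, a narrow range, while Nrp1 was at 29.3, 2.22, 8.56 and 0 CPM although it was stored in 14.1% to 28.4% of nuclei. Plxna4 spans chr6:32144268-32588192 on the minus strand of GRCm38 (the build also called mm10) and overlaps 3 opposite-strand genes. Of the 31 members, 12 overlap a gene on the other strand, and whether counting used strand is not given in the sources used here.

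**Figure D1:**
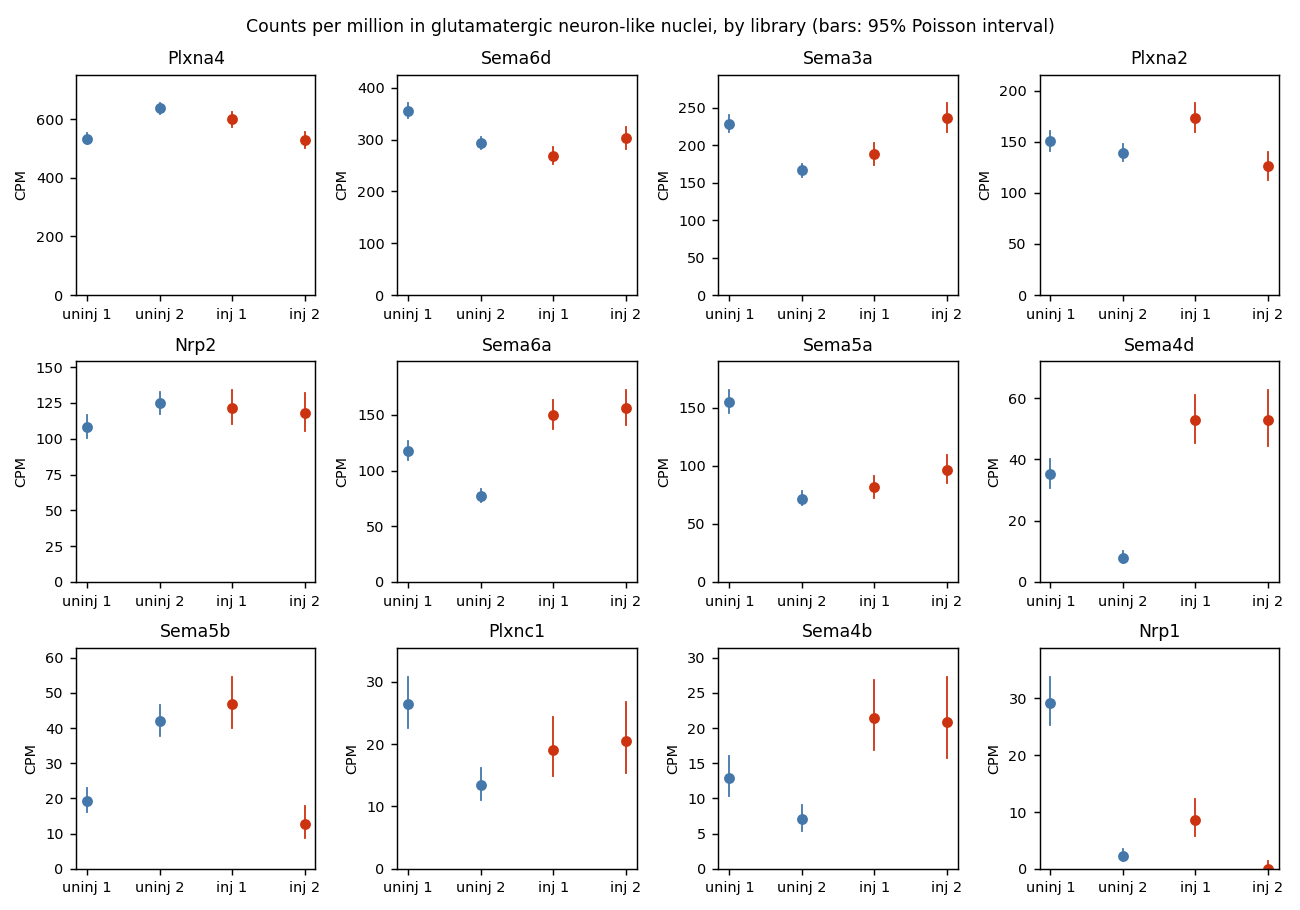
CPM (vertical axis, from 0) of 12 members in glutamatergic neuron-like nuclei of each library, uninjured in blue and injured in red, with 95% Poisson intervals that cover counting error only. Nrp2 lies between 108 and 125 CPM in all libraries, whereas Sema4d lies at 7.90 CPM in uninjured 2 and at 52.8 and 53 CPM in the injured libraries.

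How much of a gene's detection was kept varied between libraries. For Sema4d, 33.9%, 9.30%, 52.3% and 42.6% of stored entries kept a count, while the stored share was 70.9%, 66.4%, 54.3% and 63.3%. Sema3d kept 26.9%, 0%, 60.5% and 69.7% of its stored entries. Sema4b kept 39.7%, 21.8%, 54.7% and 56.4%, and Sema6c 7%, 2.01%, 25.6% and 20.3%. For these 4 genes both injured libraries kept larger shares than both uninjured ones. Without matching for depth, both also stored the gene in a smaller share of nuclei, but their nuclei held fewer stored genes. In depth-matched nuclei Sema6c was stored in 19.0%, 19.1%, 21.9% and 20.7%, higher in both injured libraries, and the groups overlapped for Sema3d, Sema4b and Sema4d. Sema4a, Sema6a and Sema7a, also higher in CPM in both injured libraries, kept larger shares there too. Their mean kept shares were 17.8%, 63.2% and 17.3% in injured against 11.7%, 49.1% and 4.32% in uninjured libraries. Sema3e, lower in CPM in both injured libraries, kept a mean of 27.9% against 48.6%. The part of the subtraction in the CPM differences of these genes was not tested. Plxna4 kept 84.0% to 90.6% of its stored entries and Nrp2 54.9% to 57.9%.

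**Figure D2:**
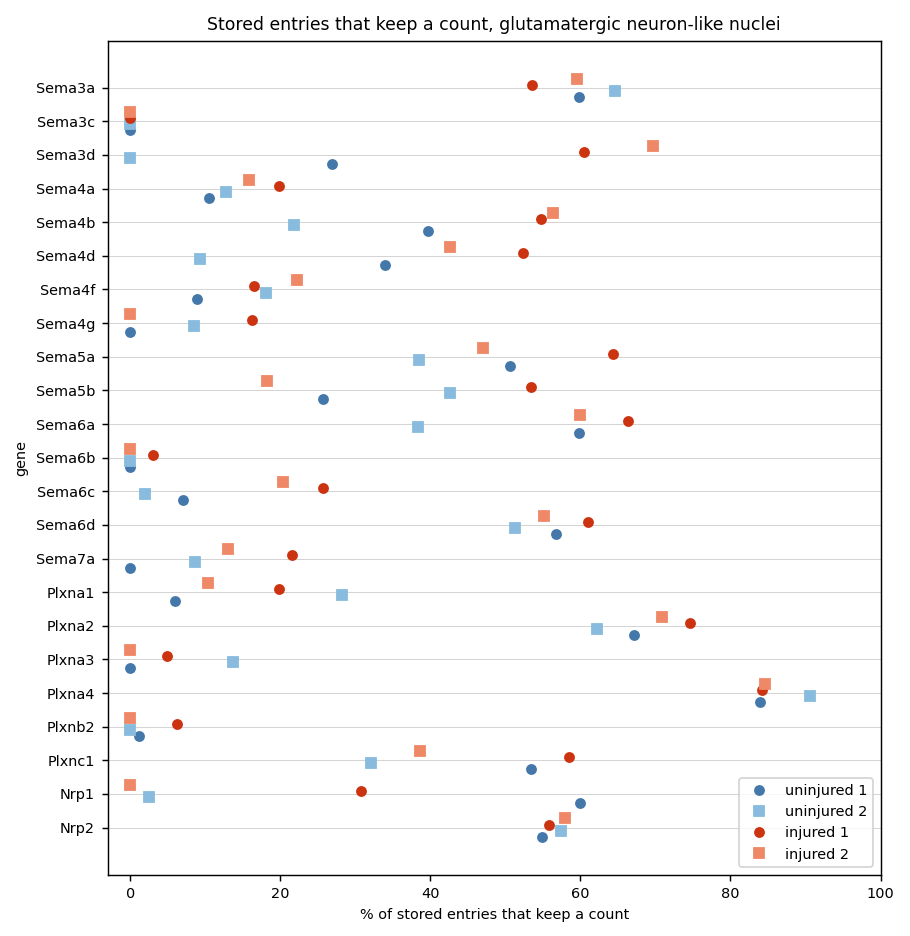
Share of stored entries that keep a count (horizontal axis, percent) for members stored in at least 10% of glutamatergic neuron-like nuclei of every library, 1 point per library. Nrp2 lies between 54.9% and 57.9% in all 4 libraries, and Sema3d between 0% and 69.7%.

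No member passed the test of injured against uninjured libraries on the summed counts of glutamatergic nuclei: 0 of the 20 members that passed the filter on low counts, against 0 of 10886 genes (0% called) by edgeR's quasi-likelihood test. At an unadjusted p under 0.05 there were 1 member and 208 genes. DESeq2 called 0 members and 6 genes, and limma-trend 0 of either. The member with the smallest p was Sema6a, with a log2 fold change of 0.65 (SE 0.22). Log2 fold changes were positive for 14 members and negative for 6, with a median of 0.19 against 0.05 over all genes. The groups did not overlap for 8 of the 20 members (7 higher after injury, 1 lower), beside 30.5% of all genes tested (15.4% higher, 15.1% lower). The higher members were Sema3d, Sema4a, Sema4b, Sema4d, Sema6a, Sema6c and Sema7a, and the lower one was Sema3e.

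Without uninjured 1, the log2 fold change was 8.71 (SE 1.63) for Sema3d and 2.64 (SE 0.50) for Sema4d. The comparison then rests on uninjured 2 alone for its controls, the library where Sema3d has no count. The lone control is assumed to vary like the injured libraries. In this fit the median log2 fold change was 0.20 over members and 0.099 over all genes. Leaving out each library in turn, Sema3d ranged from 0.74 to 8.71 and Sema4d from 0.66 to 2.64.

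Detection gave a second comparison, on the stored share in nuclei matched for the number of stored genes. Here limma called 0 of 25 members, against 235 of 14239 genes (1.65%), of which 12 were higher (0.0843%) and 223 lower (1.57%) after injury. The calls over all genes depend on single libraries: there were 82 without uninjured 1, 43 without uninjured 2, 373 without injured 2, and 826 without injured 1, of which 418 were higher and 408 lower. Members called stayed at 0 in each of these. At an unadjusted p under 0.05 there were 5 of 25 members, beside 2071 of 14239 genes. The differences of these 5 are given in log odds. Nrp1 differed by -0.52 (SE 0.17), Sema3c by -0.45 (SE 0.17), Plxnc1 by -0.38 (SE 0.17), Sema3e by -0.54 (SE 0.25) and Sema7a by 0.39 (SE 0.16). In matched nuclei Nrp1 was stored in 22.6%, 27.0%, 17.7% and 14.9%, and Sema3c in 54.5%, 47.8%, 43.8% and 36.1%, so that neither overlapped between groups. Sema7a was stored in 21.4%, 23.4%, 28.4% and 31.2%. Groups did not overlap for 18 of the 25 members (8 higher, 10 lower), beside 44.4% of all genes tested (16.9% higher, 27.5% lower).

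Without matching for depth, 5 of 25 members passed, all lower after injury, beside 2936 of 14514 genes (2911 lower, 25 higher). The members were Nrp1, Plxna2, Plxna4, Plxnc1 and Sema3c. The mean number of stored genes per nucleus was 5894 and 5524 in the uninjured and 4629.6 and 4987 in the injured libraries, and 5271, 5240.3, 5121 and 5149.8 after matching. The median difference of all genes was -0.39 without matching and -0.04 with it. For 8 of the 20 members in both tests the signs differed. Differences were positive on counts and negative on detection for 7, Plxna2, Plxnc1, Sema3d, Sema4a, Sema4d, Sema4f and Sema4g, and the other way round for Sema5b. The count difference of Plxnc1 was near 0 (0.0022). Sema3d was at 1.75 in log2 on counts and -0.17 in log odds on detection, Sema4d at 1.34 and -0.06, and Sema4a at 0.80 and -0.21. None passed the threshold on either measure.

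**Figure D3:**
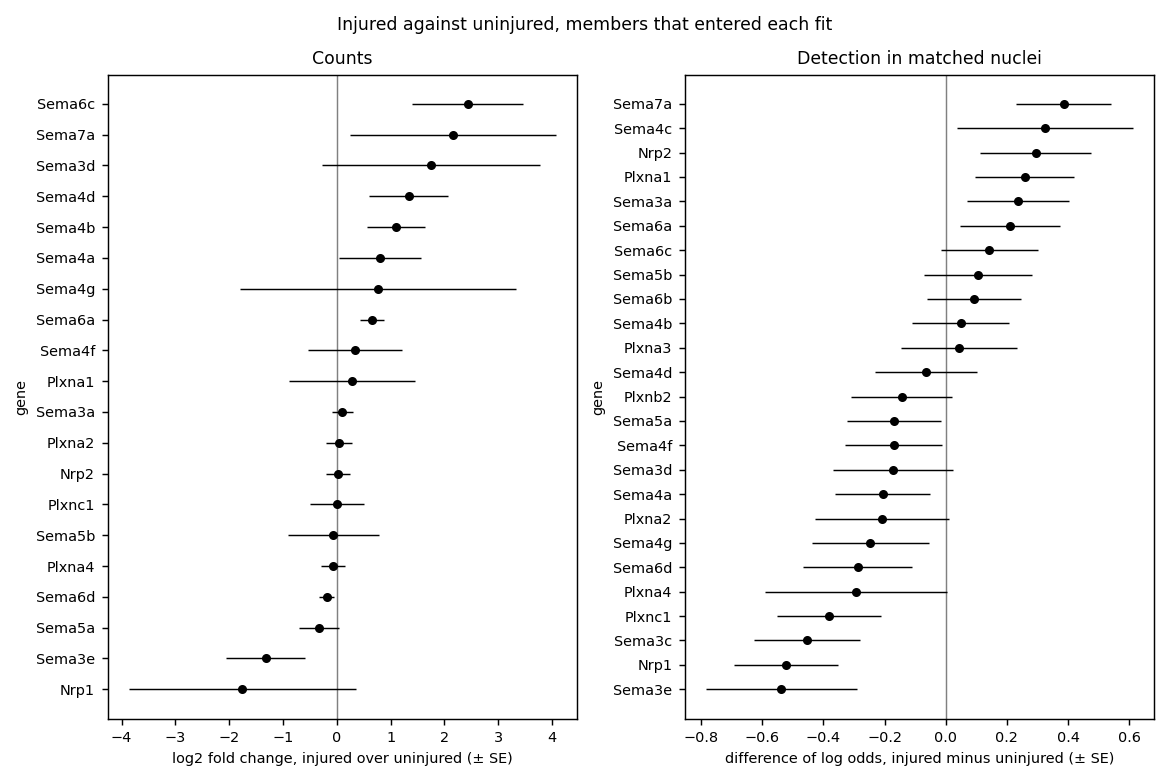
Injured against uninjured in glutamatergic neuron-like nuclei: log2 fold change of counts for 20 members (left) and difference of log odds of a stored entry in matched nuclei for 25 members (right), points with SE bars. No member passed the adjusted threshold in either panel, and Sema6a at 0.65 has the smallest p on the left.

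Within single groups of glutamatergic neurons the count test called 0 members in each of the 6 clusters with at least 20 nuclei in every library, where 0 genes were called (0%). At an unadjusted p under 0.05 were Sema3d (log2 fold change 5.34) and Sema4d (3.57) in the cluster led by Stpg2, Sema4b (2.04) and Sema6a (1.02) in the Tafa4 cluster, Sema3a (2.42) and Sema6a (1.31) in the Dnah11 cluster, Sema4d in the Hgf cluster (3.76) and Sema6d in the Has2os cluster (-0.88). In the Stpg2 cluster these were 2 of 14 members beside 144 of 8574 genes, and in the Tafa4 cluster 2 of 12 beside 221 of 7128. The Dnah11 cluster had 2 of 7 beside 158 of 3747, and the Hgf cluster 1 of 8 beside 85 of 4649. The Has2os cluster had 1 of 6 beside 82 of 2877, and the Col8a1 cluster 0 of 10 beside 116 of 4739. Several of the member values rest on few counts. Sema3d had 2, 0, 19 and 22 in the Stpg2 cluster, Sema4d 15, 2, 79 and 27 there and 3, 0, 16 and 14 in the Hgf cluster, Sema4b 14, 13, 13 and 22 in the Tafa4 cluster and Sema3a 5, 4, 8 and 11 in the Dnah11 cluster. Sema6a had 228, 159, 117 and 130 counts in the Tafa4 cluster and 42, 39, 31 and 46 in the Dnah11 cluster, and Sema6d 80, 65, 14 and 33 in the Has2os cluster.

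An interaction of cluster and injury, added after the data were seen, asked whether the injury difference inside a cluster departs from the difference outside it. It called 1 member, Sema5a in the Tafa4 cluster, which has the interneuron factor Lhx1 among its leading genes. There Sema5a stood at 473, 191, 168 and 209 CPM, and its injury difference was lower than in the other nuclei by -1.51 on the log2 scale (SE 0.26, edgeR adjusted p = 0.0127). In the Stpg2 cluster it was at 11.4, 8.89, 42.9 and 17.3 CPM. Both injured libraries were higher in the Stpg2 cluster, while the groups overlapped in the Tafa4 cluster. The share of genes called in the interaction was 0%, 0.0796%, 0.26%, 0.423%, 0.15% and 0.0663% for the Stpg2, Tafa4, Col8a1, Dnah11, Hgf and Has2os clusters.

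The Sema5a call was lost with the deviance adjusted for small counts (adjusted p = 0.264) and without injured 1 (0.256). It also depends on how the nuclei are divided: at a finer resolution 381 of the 494 nuclei of the Tafa4 cluster formed a cluster with a difference of -0.62 (adjusted p = 1.00). Another 109 formed one led by Pde3a that has Lhx1, with 32, 35, 19 and 23 nuclei per library, too few for the test. In these 109 nuclei Sema5a was at 1307, 768, 408 and 552 CPM and stored in 100%, 97.1%, 84.2% and 69.6%, with both injured libraries below both uninjured ones. In the 381 nuclei it was at 150.0, 81.8, 81.0 and 56.6 CPM.

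Semaphorin and receptor levels did differ between neuron clusters, given here as a description with no test. Sema5a was higher in the Tafa4 cluster than in the other 5 in every library, and at 0 in every library of the Has2os cluster. Plxnc1 was likewise above the other 5 in the Has2os cluster, at 52.7, 77.6, 106 and 47.6 CPM. Nrp2 led in the Dnah11 cluster, at 164 to 360.4 CPM, where the next highest value of the other 5 was 160.3 CPM, and was at 4.06 to 53 CPM in the Has2os cluster. Among these 6 clusters, these were the 3 of 31 members whose leading cluster did not overlap another. In the smaller Nr5a2 cluster Sema5a lay at 333 to 848 CPM and Plxnc1 at 37.7 to 79.8 CPM, both overlapping those leading ranges.

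Plxna4 was at 74.0 to 237 CPM in the Dnah11 cluster and at 203 to 445 CPM in the Has2os cluster, and lay at 472 CPM or above in every library of the other 4. Sema6d was at 0 to 73.5 CPM in the Hgf cluster and at 548 to 937 CPM in the Dnah11 cluster. Sema3a was at 9.94 to 86.0 CPM in the Dnah11 cluster and at 218 to 483 CPM in the Has2os cluster. The Hgf and Dnah11 clusters for Sema6d, and the Dnah11 and Has2os clusters for Sema3a, did not overlap.

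**Figure D4:**
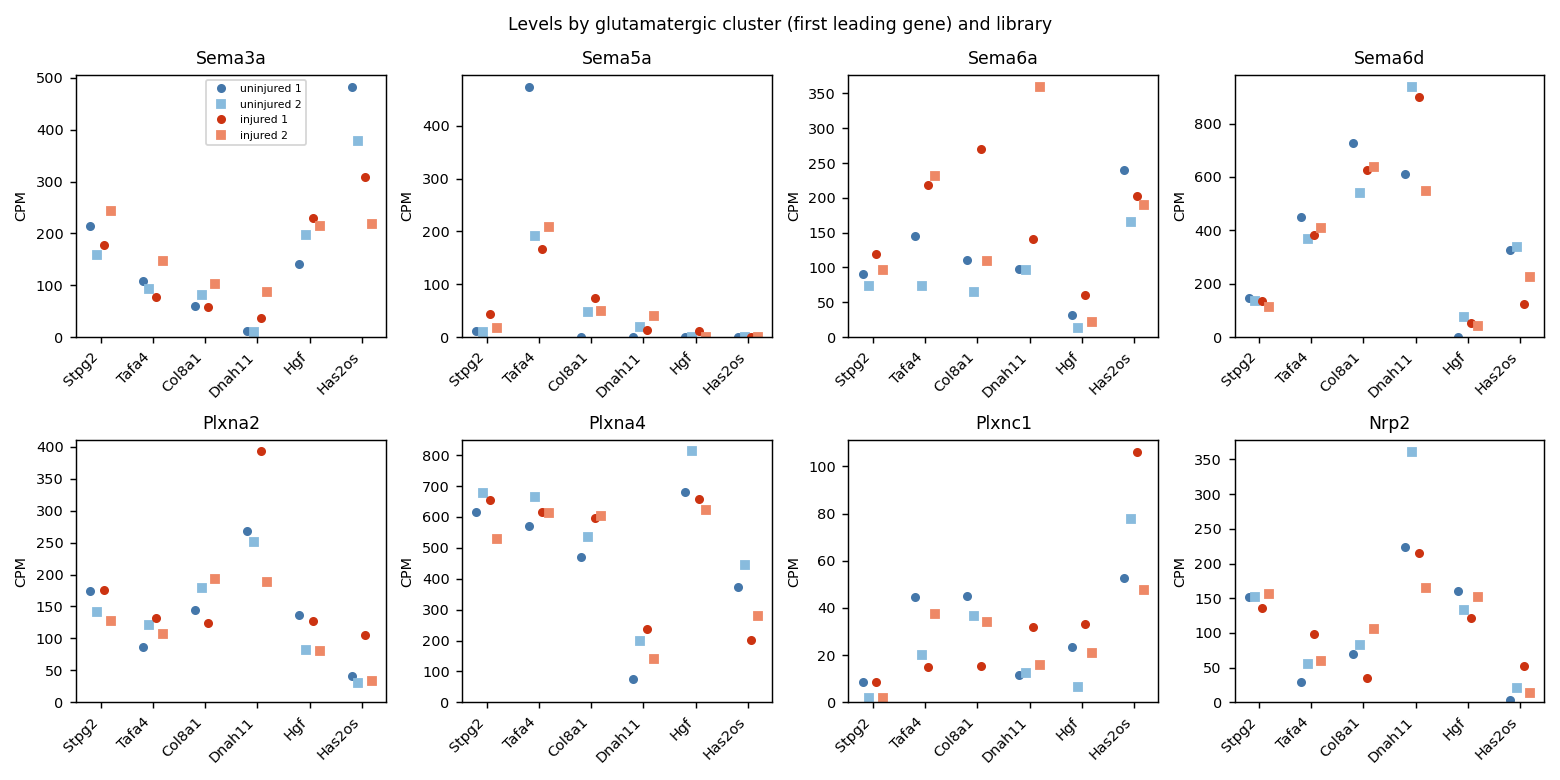
CPM (vertical axis) of 8 members in the 6 larger glutamatergic clusters, each named by its first leading gene, with 1 point per library. Plxna4 is at 74.0 to 237 CPM in the Dnah11 cluster, and Sema5a is at 168 to 473 CPM in the Tafa4 cluster.

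Smaller neuron clusters held other members. In the glutamatergic cluster led by Nr5a2, with 21, 26, 17 and 22 nuclei, Sema3a is itself 1 of the 10 leading genes and stood at 1592, 959, 1336 and 911 CPM. Sema5a was at 783, 333, 848 and 603 CPM and Sema6a at 354, 265, 369 and 402 CPM in these nuclei. An unnamed neuron cluster led by Nmu, with 106 of its 109 nuclei from uninjured 2, had Nrp1 at 900 CPM and Plxna2 at 1049 CPM, pooled over libraries, and 0 counts of Sema3a. Another, led by Ccdc172, with 113 of 117 nuclei from uninjured 2, had Sema6d at 1716 CPM, Sema5a at 686 CPM, Plxna2 at 675 CPM and Nrp1 at 268 CPM. In inhibitory neuron-like nuclei, 115 of 118 from uninjured 2, Nrp1 was at 325 CPM, Sema3e at 190.1 CPM and Sema6d at 1583 CPM. Sema3a had 1 count there.

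Some members seen in glia also had many counts in neurons, and others had few there. Plxnb3, the Sema5a receptor, had 518 counts in the 683 oligodendrocyte-like nuclei (378 CPM, 95% Poisson interval 347 to 412) and was stored in 54.3% of them, against 2 counts and 1.97% of 1878 glutamatergic nuclei. By library the oligodendrocyte-like nuclei had 8, 502, 5 and 3 counts of it. Plxna4 had 0 counts in these nuclei and was stored in 6%, against 94.4% of glutamatergic nuclei, whose level was at least 267-fold higher (against a floor of 3 counts over the class). Sema3a was at least 90.4-fold and Nrp2 at least 54.0-fold higher in glutamatergic nuclei on the same basis. These bounds are on kept counts and do not cover entries emptied by the subtraction. In oligodendrocyte-like nuclei Sema3a was stored in 2.05% and Nrp2 in 9.52%, all without a count. Oligodendrocyte-like nuclei also had Sema6a at 388 CPM, Sema6d at 641 CPM, Sema4d at 149 CPM, Sema5a at 141 CPM and Plxnb1 at 54.1 CPM. The 2 oligodendrocyte-like clusters differed among themselves: Sema6a was at 675 CPM in the one led by Fbxw15 and 184 CPM in the one led by Enpp6, and Sema5a at 0 and 241 CPM.

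In the test of oligodendrocyte-like against glutamatergic nuclei, with library as a block, 4 of 13 members passed, against 623 of 7260 genes (8.58%; 1.52% higher, 7.07% lower). The members called were Plxnb3, higher, and Plxna4, Sema3a and Nrp2, lower, by edgeR's quasi-likelihood test adjusted for small counts. Each entered the test only through the class where it is high, with 2 counts of Plxnb3 and 0 of the others in the opposite class, so these calls add nothing to the counts above. With RLE scaling 0 members passed, as did 0 without injured 1 or without injured 2, and 0 genes passed in each of these. The median log2 fold change of all genes was -2.12, so most genes were on the lower side. Sema6a, Sema6d, Sema4d and Sema5a did not pass (edgeR adjusted p = 0.813, 0.844, 0.192 and 0.558).

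Other non-neuronal nuclei were few and came mostly from uninjured 2, so they are given as pooled values. The 118 astrocyte-like nuclei had Sema6d at 1807 CPM, Plxnb1, a Sema4d receptor, at 166 CPM, Nrp1 at 78.4 CPM, Sema4a at 69.4 CPM and Sema4b at 60.3 CPM. The 33 oligodendrocyte precursor-like nuclei had Sema3d at 1344 CPM, stored in 90.9% of nuclei, Sema5a at 725 CPM and Sema5b at 294 CPM. Microglia or macrophage-like nuclei, 29 of 49 from injured 1, had Nrp1 at 1414 CPM and Plxna4 at 471 CPM. The 21 pericyte or fibroblast-like nuclei had Plxna2 at 1292 CPM and Sema3d at 441 CPM, and 0 counts of Sema3a.

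**Figure D5:**
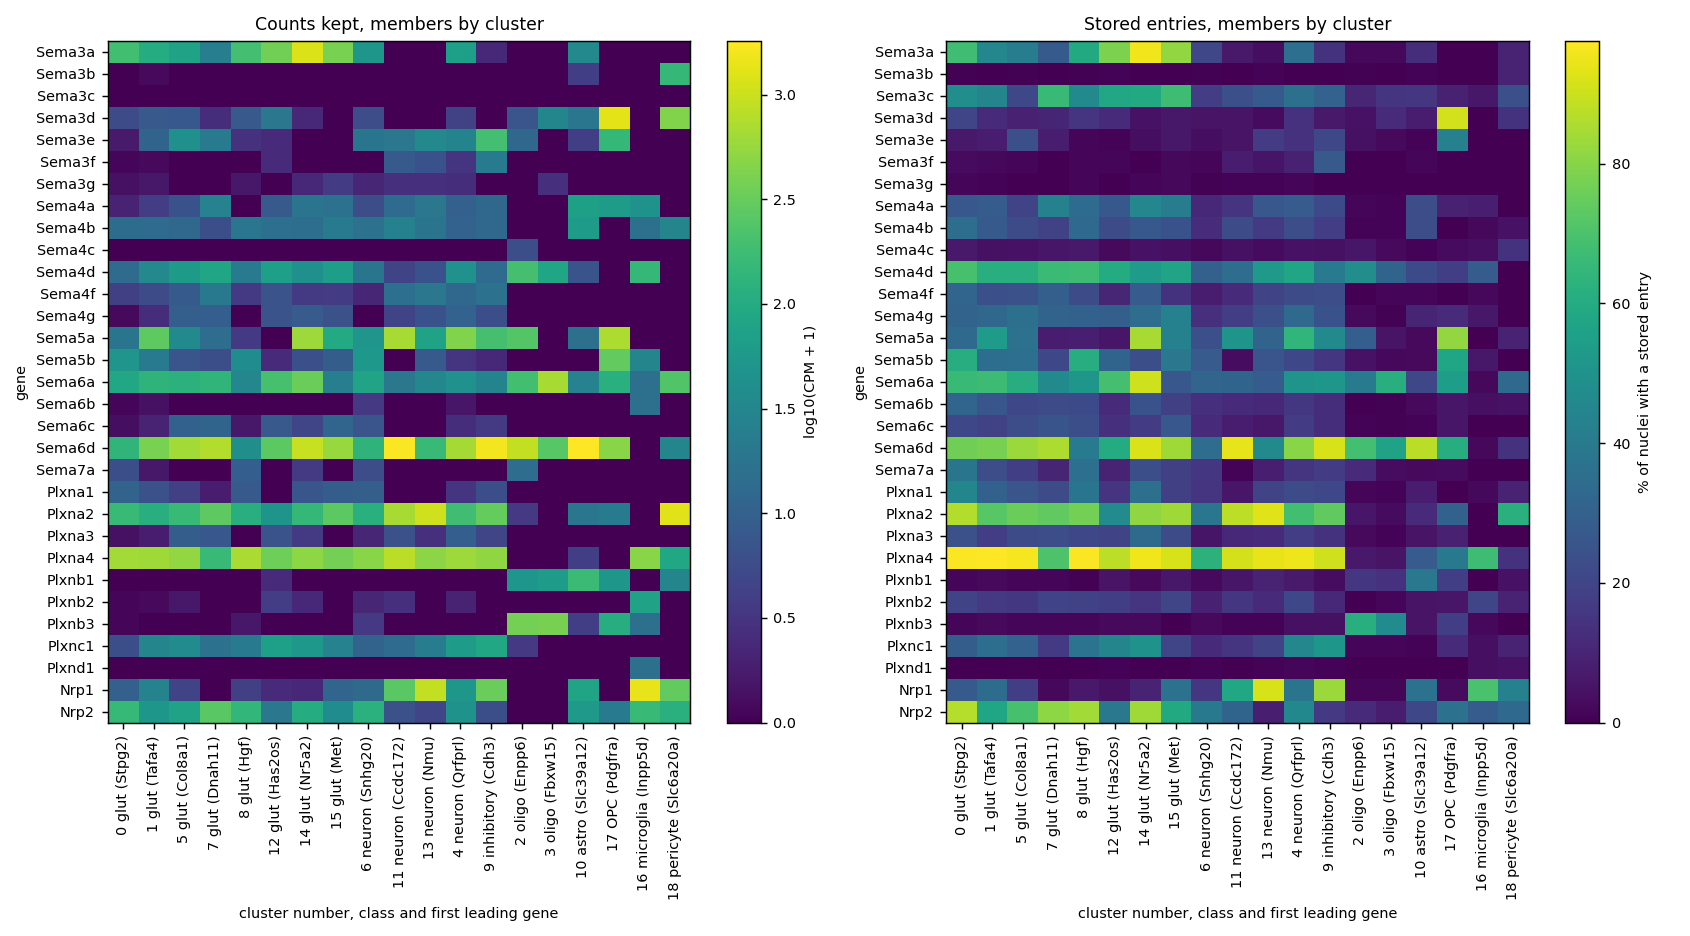
All 31 members in the 19 clusters, pooled over libraries: log10(CPM + 1) of counts kept (left) and percent of nuclei with a stored entry (right), clusters labelled by number, class and first leading gene. Plxnb3 is bright in the oligodendrocyte-like clusters, where Plxna4 is dark, and Sema3c has stored entries in neurons but no counts.

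Ligand and receptor levels were then set side by side for 33 known pairs, counting a gene as present at 10 CPM in every library holding at least 20 nuclei of the class. In glutamatergic nuclei 5 pairs had both partners: Sema3a with Plxna2 and Plxna4, Sema6a with Plxna2 and Plxna4, and Sema6d with Plxna4. Each pair was counted alone, so those of Sema3a do not include the neuropilin that holds this ligand and are not a whole receptor complex. From oligodendrocyte-like nuclei, where only uninjured 2 holds enough, 3 pairs had the ligand there and the receptor in glutamatergic nuclei: Sema6a with Plxna2 and Plxna4, and Sema6d with Plxna4. In the other direction 1 pair, Sema5a with Plxnb3, had its ligand in glutamatergic and its receptor in oligodendrocyte-like nuclei. Sema3a with Nrp1, the textbook receptor complex of this ligand, did not count, since Nrp1 was below 10 CPM in 3 of 4 libraries (2.22 in uninjured 2, 8.56 in injured 1 and 0 in injured 2). The level is 1 cut on kept counts for all genes, although CPM is not a scale for comparing genes. Nrp1 kept a count in 60% of its stored entries in uninjured 1 and 2.48% in uninjured 2. A pair that did not count can therefore hold a gene with stored entries, and its absence was not tested. These are levels of nuclear RNA in separate nuclei and no measure of contact or binding.

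Of 56 other genes of the pathway (co-receptors, other ligands and intracellular partners), 34 entered the count test and 0 passed, with 22 positive and 12 negative log2 fold changes and a median of 0.10. On detection 0 of 45 passed, and 1, Rnd2, was called higher without injured 1 (0.86 in log odds, SE 0.20). Cntn2, a cell adhesion partner of L1 proteins, was at 4.83, 1.60, 32.0 and 25.5 CPM (log2 fold change 3.19, SE 0.73) while 6.78%, 2.25%, 31.9% and 26.5% of its stored entries kept a count. In depth-matched nuclei Cntn2 was stored in 56.8%, 59.6%, 65.3% and 61.7%, higher in both injured libraries, and without matching in 64.6%, 62.4%, 56.8% and 59.5%, lower in both. The part of the kept share in its CPM was not tested. The next by p were Dpysl5 (-0.57), Arhgap35 (0.29), Crmp1 (0.54), Fyn (0.38) and Ptk7 (0.58), given as log2 fold changes.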

How the data were processed

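The deposited values are counts of molecules, 1 matrix per library with genes by nuclei. Cell Ranger, Seurat 5.0.0 and mm10 are listed in the submitters' processing notes; how the SoupX subtraction named in the matrices was set is not given in the sources used here. Scrublet doublets (scanpy 1.11.5) and nuclei in which under 500 genes had counts were left out. Libraries were integrated in Seurat 5.3.0 (2000 variable genes without the 31 members, 30 dimensions, resolution 0.5). Named classes other than the glutamatergic one needed 3 markers at 4-fold. Glutamatergic clusters needed 3 pan-neuronal genes at 100 CPM, 3 V2a lineage genes stored in 5% of nuclei and Slc17a6 stored in 50%. Clusters with an inhibitory or cholinergic marker among their 10 leading genes were left out of this class. The rule for the glutamatergic class was set after seeing the data. The members and lists were chosen with earlier results of these data known.

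Counts summed per library were tested with edgeR 4.0.16 (TMM, filterByExpr, Benjamini-Hochberg, threshold 0.05), and logit shares with limma 3.58.1; DESeq2 1.42.0 was an alternative. All members are accounted for; values per library follow a rule on detection, unadjusted p and level. On simulated data the injury fit on counts made 13 false calls beside 200 recovered (6.1% of calls). The simulation used the same spread for every gene and strong changes in genes with many counts only. Apart from the changed genes, every library and class had the same profile. These rates therefore do not give the power or the error rate of the fits on the real libraries. The class fit with edgeR's default deviance made 25 false calls beside 194 recovered (11.4% of calls). The deviance adjusted for small counts made 10 (4.9%) and was taken as the main class fit, after the default's results were seen. The cluster and interaction fits were not simulated. Intervals and floors cover counting error only. 1 lineage gene is not reported here.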

Additional observations from a re-analysis of the deposited data

Results flagged for a closer look

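The injury difference of Sema5a passed a test of the difference between glutamatergic clusters, but not under most alternatives. In the Tafa4 cluster it was -1.51 on the log2 scale relative to the other glutamatergic nuclei (SE 0.26, edgeR adjusted p = 0.0127). With the other linear algebra kernel, the cluster sharing the most nuclei gave the opposite sign (1.21, edgeR adjusted p = 0.105). That cluster also holds nuclei of other clusters, so it is not the same set of nuclei. The call was also lost with the deviance adjusted for small counts (edgeR adjusted p = 0.264), without injured 1 and at the finer resolution (1.00). It held without uninjured 1 (0.0248), uninjured 2 (0.0002) or injured 2 (0.0457).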

How the results depend on the processing

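The class comparison depends most on the processing. The main fit called 4 of 13 members, beside 623 of 7260 genes. The deviance not adjusted for small counts called 7 of 13, beside 2888 of 7260 genes. No filter on low counts called 7 of 29 members, beside 1847 of 23211 genes. RLE scaling called 0 members and 0 genes. A minimum of 1000 genes per nucleus called 1 of 11 members, beside 398 of 7008 genes. This minimum leaves 9, 0, 0 and 1 oligodendrocyte-like nuclei. It was run within the main classes after a reclustered version had been seen. Leaving out each library gave 0 to 6 members, beside 0 to 1875 genes. RLE scaling moved the median log2 fold change of all genes from -2.12 to -2.33. For injury, detection without depth matching called 5 of 25 members, beside 2936 of 14514 genes. On counts, calls of members and pathway genes also changed when single libraries were left out. So did calls of members within the Stpg2, Tafa4, Col8a1 and Hgf clusters. Each of these fits leaves 1 library in a group. The main fits did not treat equal replicate numbers as pairs. The correlation of deviations was -0.056 for equal numbers. With 2 libraries per group the deviations mirror each other, so this is a single value that cannot decide whether the libraries pair. With the replicate block 0 members were called on counts and 0 on detection. On detection all genes called numbered 2936 without matching, 554 with bins of double width, 503 with the block, and 43 to 826 leaving out each library (43 without uninjured 2, 82 without uninjured 1, 826 without injured 1, which were 418 higher and 408 lower), against 235.

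The clusters themselves depend on rounding. Repeating the clustering with another linear algebra kernel, chosen after seeing the data, left the calls of the class, count and detection comparisons at 4, 0 and 0 members but divided the neurons differently. The interaction then called 0 members, as it did with the adjusted deviance (0), against 1 and against 2 at resolution 1.0, where Sema5a was called in 2 other clusters. The number of members called also changed when single libraries were left out. Calls over all genes were not recorded for these alternatives, so no share stands beside these numbers of members. For Sema5a in the Tafa4 cluster, leaving out each library gave -1.73 to -1.30. The other kernel gave 1.21 in the cluster sharing the most nuclei with it (378 of 494). That cluster holds 647 nuclei, with 161 from the Stpg2 cluster and 86 from the Nr5a2 cluster. Another 110 nuclei of the Tafa4 cluster lie in a separate cluster, so the 2 values compare different nuclei.

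Some differences that passed no test changed sign. On counts (log2): without a filter Nrp2 -0.012 and Plxnc1 -0.031; over all neuronal nuclei Plxna2 -0.39, Plxnc1 -0.48, Sema4f -0.16 and Sema5b 0.074; with the Qrfprl cluster, also chosen after seeing the data, Plxna2 -0.0028, Plxnc1 -0.32 and Sema5b 0.045; with the members among the variable genes Plxnc1 -0.24; with the other kernel Plxnc1 -0.014; over genes keeping 50% of entries Plxna4 0.041. On detection (log odds) without matching: Nrp2 -0.14, Plxna1 -0.089, Plxna3 -0.12, Sema3a -0.039, Sema4b -0.27, Sema5b -0.25, Sema6a -0.098, Sema6b -0.16 and Sema6c -0.078; Sema4b was -0.013 with wider bins and -0.00043 with the members among the variable genes. At 1000 genes, the class difference was 0.20 for Plxnc1 and 0.44 for Sema6d. The cause was not tested.

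Leaving out each library, counts ranged from -9.44 to 0.89 for Nrp1, -0.16 to 0.22 for Nrp2, -0.74 to 2.00 for Plxna1, -0.24 to 0.29 for Plxna2, -0.28 to 0.15 for Plxna4, -0.35 to 0.45 for Plxnc1, -0.046 to 0.24 for Sema3a, -0.15 to 1.06 for Sema4f, -6.28 to 6.68 for Sema4g, -0.74 to 0.20 for Sema5a and -1.33 to 0.72 for Sema5b. Detection ranged from -0.52 to 0.10 for Plxna2, -0.22 to 0.31 for Plxna3, -0.35 to 0.0038 for Sema3d, -0.052 to 0.15 for Sema4b and -0.076 to 0.29 for Sema5b, and the class difference from -0.46 to 0.25 for Sema6d.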
